A study of Mus musculus with 12 samples.

Results

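Axin2, Nkd1, Nkd2 and Kremen1, 4 genes that restrain Wnt–β-catenin signaling, were followed through 12 RNA-seq libraries of mouse B-ALL cells. They were chosen by name as feedback inhibitors of the pathway, and all 4 were found among the 12151 genes of the expression table, each in 1 row. The paper already reports all 4 as increased by stabilized β-catenin in this leukemia model, so their rise here is not independent of the choice. The cells were bone marrow pre-B cells of mice aged 6 to 12 weeks, driven to leukemic growth by BCR-ABL1. All 12 libraries carry the genotype Ctnnb1Ex3fl/+: Cre can excise exon 3 from only 1 of the Ctnnb1 alleles, which encode β-catenin. That exon encodes the residues whose phosphorylation marks β-catenin for degradation, so its loss stabilizes the protein. Cells were edited by electroporated Cas9 ribonucleoproteins with nontargeting guides (sgNTC, here WT) or with guides against Ikzf1 and Ikzf3 (sgIkzf1 Ikzf3, here KO), the genes of the B lymphoid transcription factors Ikaros and Aiolos. They then received a GFP-marked vector for ERT2, a tamoxifen-binding receptor domain without Cre, or for Cre-ERT2, whose Cre is switched on by 4-hydroxytamoxifen (4-OHT). Each vector in each background was sequenced as 3 libraries, which makes 4 groups, named by vector and background (ERT2 WT, for example). Cells were taken 1 day after 4-OHT according to a protocol that speaks of ChIP-seq, and the labels do not say whether ERT2 cells were given 4-OHT.

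The labelled KO lines were grown from single cells, and the labels do not tell which clone a library came from or whether a group's replicates were distinct lines. P values therefore measure the spread between these libraries, which may be technical, and a difference between KO and WT libraries cannot be told apart from a difference between clones. Values are log2 expression as normalized by the authors, and a difference of 1 is a doubling on that scale. Read depth is unknown, so the replicates alone give the precision of a value. Library medians lay between 9.06 and 9.11, and among the 7729 genes with a mean of at least 8 the libraries deviated from their group mean by a robust SD of 0.030 to 0.047, with no library apart from the rest. All 14 markers of B cell precursors were expressed, with means from 9.74 to 14.74, among them Cd79a and Vpreb1. As a check of the labels, Ikzf3 mRNA was lower in KO than in WT cells (by -0.65 in ERT2 libraries, SE 0.043, limma adjusted p 5.23e-08), whereas Ikzf1 mRNA was higher (1.01, SE 0.018, limma adjusted p 1.93e-13). Gene-level mRNA does not show whether a transcript still encodes protein, so the term KO refers here to what a library's label says. The paper reports that western blots showed the deletion of Ikaros factors in single-cell-derived lines of this model.

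In the canonical Wnt pathway, a complex built on Axin scaffolds captures β-catenin for phosphorylation and degradation. Wnt ligands stop this by engaging Frizzled receptors and the coreceptors Lrp5 and Lrp6, which recruit Dishevelled and Axin to the membrane. β-catenin then escapes degradation and, with TCF/LEF factors, raises target genes that include inhibitors of the pathway. Axin2 is the best known of these targets and acts within the degradation complex itself. Nkd1 and Nkd2, the vertebrate Naked cuticle proteins, bind Dishevelled. Kremen1 is a membrane receptor for Dickkopf proteins and helps to remove Lrp5 and Lrp6 from the cell surface. The study asked how B-ALL cells respond to stabilized β-catenin with and without Ikaros factors.

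The first question was whether the inhibitors responded to stabilized β-catenin in WT cells, read as Cre-ERT2 against ERT2 libraries. An effect of Cre itself, or of 4-OHT if ERT2 cells received none, cannot be told apart from stabilized β-catenin. All 4 were higher in Cre-ERT2 than in ERT2 libraries, in a comparison that called 11.9% of all genes, 5.93% as higher and 5.95% as lower (limma adjusted p under 0.05 over all 12151 genes). Kremen1 rose most on the deposited scale, 1.61-fold, followed by Nkd1 at 1.44-fold, whereas Axin2 and Nkd2 rose 1.22-fold each. The folds of Axin2 and Nkd1 may be understated, as described below, so this order may depend on the scale.

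Axin2 (ENSMUSG00000000142) lies on chromosome 11, from 108920349 to 108950783 on the plus strand of GRCm38. It measured 5.08, 5.09 and 5.09 in the ERT2 WT libraries. With Cre-ERT2, the WT values were 5.38, 5.35 and 5.39. The groups were parted by far more than the spread within either, 5.09 ± 0.0055 (SD, n = 3) against 5.37 ± 0.024 (SD, n = 3), a rise of 0.29 (SE 0.016, limma adjusted p 2.08e-07).

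Nkd1 (ENSMUSG00000031661; chromosome 8, 88521354 to 88594884, plus strand) measured 6.26, 6.28 and 6.26 in ERT2 WT libraries. Its Cre-ERT2 WT values were 6.78, 6.79 and 6.81. The rise of 0.53 (SE 0.027, limma adjusted p 9.18e-08) was far larger than the range within either group.

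Nkd2 (ENSMUSG00000021567; chromosome 13, 73818534 to 73847631, minus strand) measured 8.42, 8.48 and 8.59 in ERT2 WT libraries. Its Cre-ERT2 WT values were 8.80, 8.82 and 8.73. This was the smallest rise next to the spread between replicates, 0.28 (SE 0.041, limma adjusted p 0.000681), and the highest ERT2 value still lay below the lowest Cre-ERT2 value.

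Kremen1 (ENSMUSG00000020393; chromosome 11, 5191552 to 5261558, minus strand) measured 8.03, 8.12 and 8.05 in ERT2 WT libraries. Its Cre-ERT2 WT values were 8.80, 8.68 and 8.78. The rise was 0.69 (SE 0.043, limma adjusted p 5.39e-07), with replicate 2 the highest of the ERT2 and the lowest of the Cre-ERT2 libraries. For each of the 4 genes, all 3 Cre-ERT2 values lay above all 3 ERT2 values, a pattern seen in 15.2% of all genes, with 15.9% parted the other way.

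**Figure D1:**
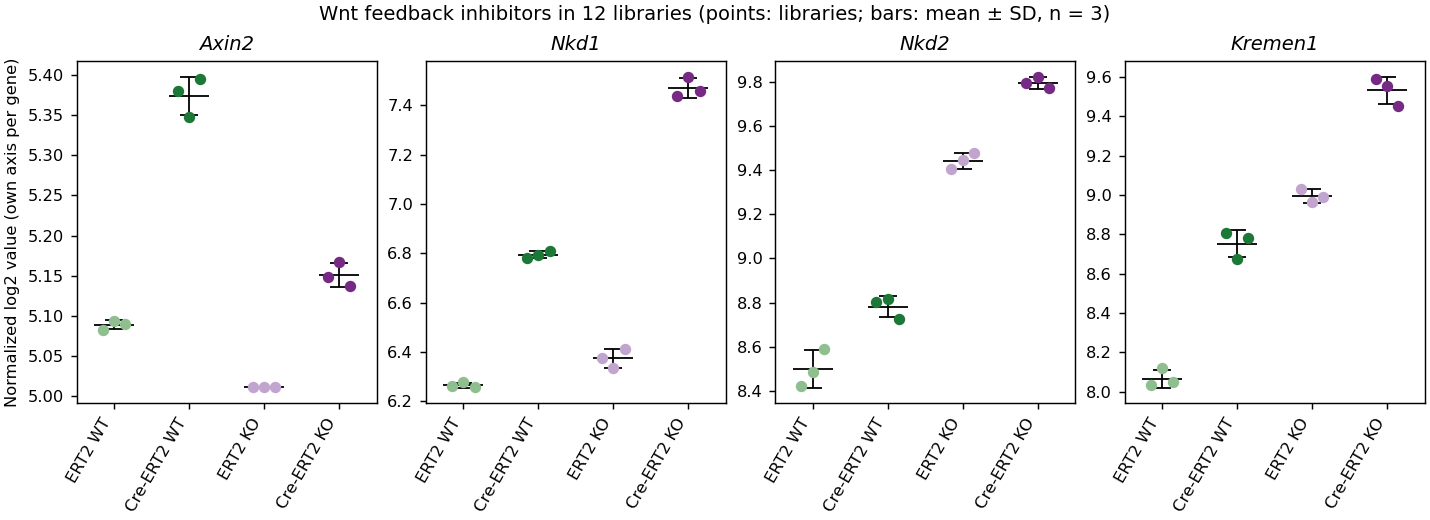
Normalized log2 values of Axin2, Nkd1, Nkd2 and Kremen1 in the 12 libraries, with a separate vertical axis for each gene; points are libraries and bars the mean ± SD of 3 replicates. No groups overlap for any gene, Nkd2 and Kremen1 are higher in every KO library than in any WT library, and Axin2 is lowest in ERT2 KO, where its 3 points coincide.

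The same question was asked in KO cells. All 4 genes rose there too, where 12.6% of all genes were called, 7.27% as higher and 5.33% as lower. Nkd1 rose 2.14-fold, Kremen1 1.45-fold, Nkd2 1.28-fold and Axin2 1.10-fold. On this scale Nkd1 thus took the first place held by Kremen1 in WT cells, with the same limit on the order.

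Nkd1 measured 6.38, 6.34 and 6.41 in ERT2 KO libraries. With Cre-ERT2 the KO values were 7.44, 7.52 and 7.46, the highest of the gene in any group. The rise was 1.10 (SE 0.027, limma adjusted p 5.42e-11).

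Kremen1 measured 9.03, 8.96 and 8.99 in ERT2 KO and 9.59, 9.55 and 9.45 in Cre-ERT2 KO libraries. It rose by 0.54 (SE 0.043, limma adjusted p 3.42e-06). Already without Cre, each ERT2 KO value exceeded every Cre-ERT2 WT value.

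Nkd2 measured 9.40, 9.45 and 9.48 in ERT2 KO and 9.80, 9.82 and 9.77 in Cre-ERT2 KO libraries. It thus rose by 0.35 (SE 0.041, limma adjusted p 9.57e-05). Its order of groups was that of Kremen1, in which both WT groups lay below both KO groups and, within each background, ERT2 lay below Cre-ERT2.

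Axin2 measured 5.0107, 5.0107 and 5.0112 in ERT2 KO libraries, its lowest values of all. With Cre-ERT2 the KO values were 5.15, 5.17 and 5.14, which was 0.14 higher (SE 0.016, limma adjusted p 8.92e-05). In KO cells, again, the Cre-ERT2 and ERT2 libraries did not overlap for any of the 4 genes, as for 14.5% of all genes, with 13.9% parted the other way.

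With 3 against 3 libraries the exact 2-sided permutation test cannot go below 0.1, and each of the 4 genes reached 0.1 in both backgrounds. A stratified exact permutation test, which exchanged vector labels within WT and within KO cells, combined the backgrounds. The average rise was 0.81 for Nkd1 (SE 0.017), 0.61 for Kremen1 (SE 0.032), 0.32 for Nkd2 (SE 0.031) and 0.21 for Axin2 (SE 0.0083). Each gave a 2-sided p of 0.005, the smallest that its 400 assignments allow, with 6 Cre-ERT2 and 6 ERT2 libraries.

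The near-coincidence of the Axin2 values bears on how far its changes can be read. Its ERT2 KO values spanned 0.00050, and of the 624 genes with a mean within 0.5 of that of Axin2 only 0.962% had as small an SD in that group. Their median SD was 0.022. In ERT2 WT, 8.81% had an SD as small as that of Axin2, and in Cre-ERT2 KO 30.3%. Across the table, the median SD between replicates was 0.011 at means of 1 to 3, 0.029 at 5 to 6 and 0.046 at 9 to 10, although counting noise grows as counts become fewer. The log transformation is not given in the sources used here. The values of Axin2, and to a lesser degree of Nkd1, thus fall where the scale may be compressed, by an amount that was not tested, and their fold changes may be understated. Nkd2 and Kremen1, with pooled SDs of 0.054 and 0.056, lay at levels where the spread was near its maximum.

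**Figure D2:**
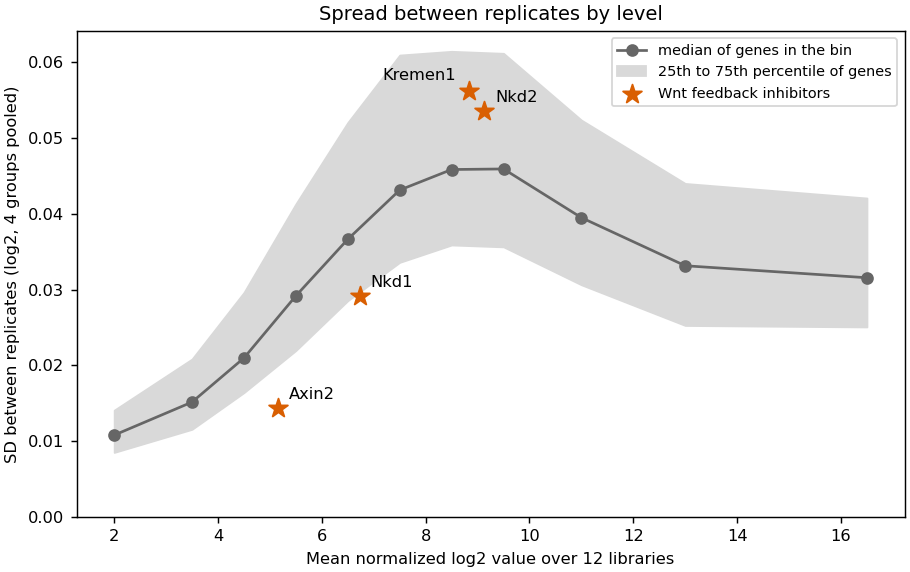
SD between replicates (log2, pooled over the 4 groups) against the mean log2 value over 12 libraries; the line is the median and the band the 25th to 75th percentile of genes in bins of level, and stars are the 4 inhibitors. The spread falls toward low values, and Axin2 (0.014) lies below the band at its level.

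Because the 4 genes rose together, the RefSeq sequence upstream of their start sites was examined for 2 short motifs, CTTTGAT, the core bound by TCF/LEF factors, and GGGAA, the core bound by Ikaros factors. Both strands were searched in the 250 bases before the start site, and no matches of the motifs overlapped. RefSeq (GRCm38.p6) gave a window for 3 of the 4 genes, Axin2, Nkd1 and Nkd2, shown here as the sequence nearest to each start, 5′ to 3′ in the direction of the gene, with motif matches in capitals.
Axin2, chr11:108920099-108920348, plus strand: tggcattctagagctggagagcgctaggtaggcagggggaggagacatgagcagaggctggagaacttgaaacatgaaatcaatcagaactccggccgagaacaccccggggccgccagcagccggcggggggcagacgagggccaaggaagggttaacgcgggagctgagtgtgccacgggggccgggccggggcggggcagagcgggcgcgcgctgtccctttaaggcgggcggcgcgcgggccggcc
Nkd1, chr8:88527383-88527632, plus strand: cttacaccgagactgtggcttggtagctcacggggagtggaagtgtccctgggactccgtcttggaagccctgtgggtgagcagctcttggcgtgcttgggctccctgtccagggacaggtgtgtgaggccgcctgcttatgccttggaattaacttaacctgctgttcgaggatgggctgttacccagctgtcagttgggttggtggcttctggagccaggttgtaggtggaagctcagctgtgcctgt
Nkd2, chr13:73847632-73847881, minus strand: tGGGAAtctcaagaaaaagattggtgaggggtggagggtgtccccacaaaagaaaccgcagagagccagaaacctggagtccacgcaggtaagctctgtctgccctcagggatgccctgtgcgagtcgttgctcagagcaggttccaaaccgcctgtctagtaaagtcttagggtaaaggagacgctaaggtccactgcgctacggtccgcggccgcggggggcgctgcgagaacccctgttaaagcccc
The windows of Axin2 and Nkd2 end 1 base before the GENCODE gene starts, and that of Nkd1 precedes a RefSeq start 6279 bases inside the GENCODE gene. The Nkd1 window itself overlaps no annotated exon of the gene, while bases 21 to 45 after this start occur in 1 GENCODE transcript of Nkd1. CTTTGAT was in none of the 3 windows, and 3.21% of the 32851 windows of all genes hold it. GGGAA was in the Nkd2 window, 249 to 245 bases before the start and on the strand of the gene, as in 56.2% of all windows for either strand. These letters being absent from a window says nothing about binding elsewhere. The Axin2 window was rich in G and C, at 69.2%, against 58.4% for Nkd1 and for Nkd2 and a median of 52.4% over all windows.

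The next comparison asked what KO cells expressed without stabilized β-catenin. Nkd2 was 1.92-fold and Kremen1 1.90-fold higher in ERT2 KO than in ERT2 WT libraries, Nkd1 was 1.08-fold higher, and Axin2 was lower. Among all genes 59% were called, 29.8% as higher and 29.3% as lower, so that a call in this comparison was common. Centering each library on its median moved this split from 3616 higher and 3559 lower to 2866 and 4747 genes, and with Cre-ERT2 from 3688 and 3473 to 2983 and 4789, while the 4 inhibitors kept their direction and call. The sizes differed more than the calls. The difference was 0.94 for Nkd2 (SE 0.041, limma adjusted p 7.75e-10) and for Kremen1 0.93 (SE 0.043, limma adjusted p 1.34e-09). For Nkd1 it was 0.11 (SE 0.027, limma adjusted p 0.00420). After quantile normalization this difference was 0.035 and not called (limma adjusted p 0.289). Axin2 fell by 0.078 (SE 0.016, limma adjusted p 0.00111), at the low end of the scale described above.

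With stabilized β-catenin, Nkd1 joined Nkd2 and Kremen1. The level of Nkd2 in KO cells exceeded that in WT cells by 1.01 (SE 0.041, limma adjusted p 3.51e-10), Kremen1 by 0.78 (SE 0.043, limma adjusted p 7.51e-09) and Nkd1 by 0.68 (SE 0.027, limma adjusted p 3.07e-10). Axin2 fell by 0.22 (SE 0.016, limma adjusted p 9.47e-08). Of all genes 58.9% were called, 30.4% as higher and 28.6% as lower. KO and WT libraries did not overlap for any of the 4 genes with either vector, which held for 33.3% of genes upward and 32.1% downward in ERT2 and for 32.9% and 30.7% in Cre-ERT2 libraries. Averaged over the vectors, the stratified exact permutation test gave a 2-sided p of 0.005 for each gene, again its smallest value, with mean differences of 0.98 for Nkd2, 0.85 for Kremen1, 0.39 for Nkd1 and -0.15 for Axin2.

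The summed levels of some marker lists also differed between KO and WT libraries. Of 8 myeloid markers, Itgam and Lyz2 were among the genes tested. Their summed level lay between 7.57 and 7.62 in WT and between 8.45 and 8.76 in KO libraries. Sums were taken over unlogged values, so the gene with the higher mean (7.95 against 4.60) sets most of this sum. The summed level of the 14 markers of B cell precursors lay between 17.31 and 17.36 in WT libraries. It lay between 16.74 and 16.80 in KO libraries, and the directions of single markers are not given. Of 8 T and NK markers only Klrb1c was tested (mean 2.41), and of 6 erythroid markers none. Of 6 genes listed as stromal only Pecam1 was tested, at 10.72 to 11.09 in WT and at 9.74 to 10.13 in KO libraries. A single gene does not identify stromal cells, and which cells expressed Pecam1 was not tested. Pecam1 also moved with β-catenin, between 10.72 and 10.82 in ERT2 WT, 11.04 and 11.09 in Cre-ERT2 WT, 9.74 and 9.75 in ERT2 KO, and 10.09 and 10.13 in Cre-ERT2 KO libraries. The myeloid sum lay between 8.45 and 8.53 without and between 8.65 and 8.76 with Cre in KO cells, and between 7.60 and 7.62 without and between 7.57 and 7.60 with Cre in WT cells. The part of these shifts in the differences of Nkd2, Kremen1, Nkd1 and Axin2, between backgrounds and with β-catenin, was not tested, and in bulk RNA a change in the share of cells cannot be told apart from a change per cell.

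Whether the response to β-catenin depended on the background was tested as the difference of both effects. It was larger in KO cells for Nkd1, smaller for Axin2, and not called for Kremen1 and Nkd2. Of all genes 4.53% were called, 2.71% with a positive and 1.82% with a negative difference. The rise of Nkd1 was larger by 0.57 (SE 0.038, limma adjusted p 2.74e-06), and the difference of Axin2 was -0.15 (SE 0.023, limma adjusted p 0.00284). For Kremen1 the difference was -0.15 with a 95% interval from -0.28 to -0.017, which excludes 0 before but not after adjustment over all genes (limma adjusted p 0.223). For Nkd2 it was 0.072 with an interval from -0.055 to 0.20 (limma adjusted p 0.600), and this value became 0.11 without ERT2 WT replicate 1, 0.027 without ERT2 WT replicate 3 and 0.044 without Cre-ERT2 WT replicate 3, not called in any of them. Neither interval shows that the rises were equal. Nkd1 and Axin2 thus differed in opposite directions, and the same contrast read as the KO effect shows Nkd1 almost level between backgrounds in ERT2 libraries and parted in Cre-ERT2 libraries. Gene-level mRNA measures neither excision of exon 3 nor β-catenin protein. Ctnnb1 mRNA was higher in KO than in WT cells, by 0.17 with ERT2 and 0.24 with Cre-ERT2 (SE 0.025 each). With Cre it rose by 0.13 in KO cells (limma adjusted p 0.00407) and by 0.065 in WT cells (limma adjusted p 0.128, not called). The difference of these rises, 0.068, was not called (limma adjusted p 0.367). The part of Ctnnb1 in the responses was not tested.

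**Figure D3:**
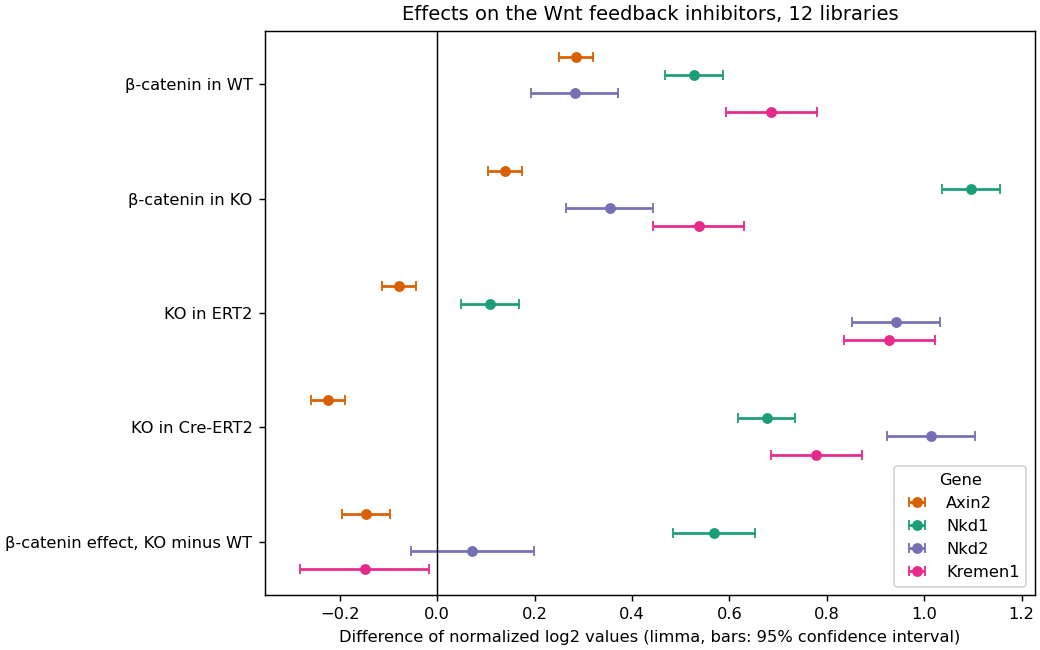
Differences of log2 values from the limma fit to 12 libraries, one color per gene, with 95% confidence intervals; rows are the β-catenin effect in WT and in KO cells, the KO effect with ERT2 and with Cre-ERT2, and the difference of the β-catenin effects. All effects of β-catenin lie above 0, Axin2 lies below 0 in both KO rows, and in the last row Nkd1 (0.57) lies apart from the other three.

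The background also set the starting level, so rises were compared on the unlogged scale, in the authors' normalized units. Nkd2 gained 78.0 units in WT (SE 14.9) and 193.5 units in KO cells (SE 13.9), which was 21.5% and 27.8% of its ERT2 level. Kremen1 gained 163.5 units in WT (SE 12.6) and 230.4 in KO cells (SE 21.5), and as a share of the ERT2 level the order turned, 60.9% against 45.2%. For this gene the gain was thus larger in KO cells in units and smaller as a share. Its difference of log2 effects, -0.15, was not called (limma adjusted p 0.223). Unlogged units also rest on a log transformation that is not given. Nkd1 gained 34.0 units in WT (SE 0.70) and 94.4 in KO cells (SE 3.15), or 44.1% and 113.7%, and was larger in KO cells on both scales. Axin2 gained 7.45 units (SE 0.40) and 3.28 units (SE 0.22), or 21.9% and 10.2%, and was smaller in KO cells on both. The difference of the gains, KO minus WT, was 115.6 units for Nkd2 (SE 20.4), 66.9 for Kremen1 (SE 24.9), 60.4 for Nkd1 (SE 3.23) and -4.17 for Axin2 (SE 0.46).

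**Figure D4:**
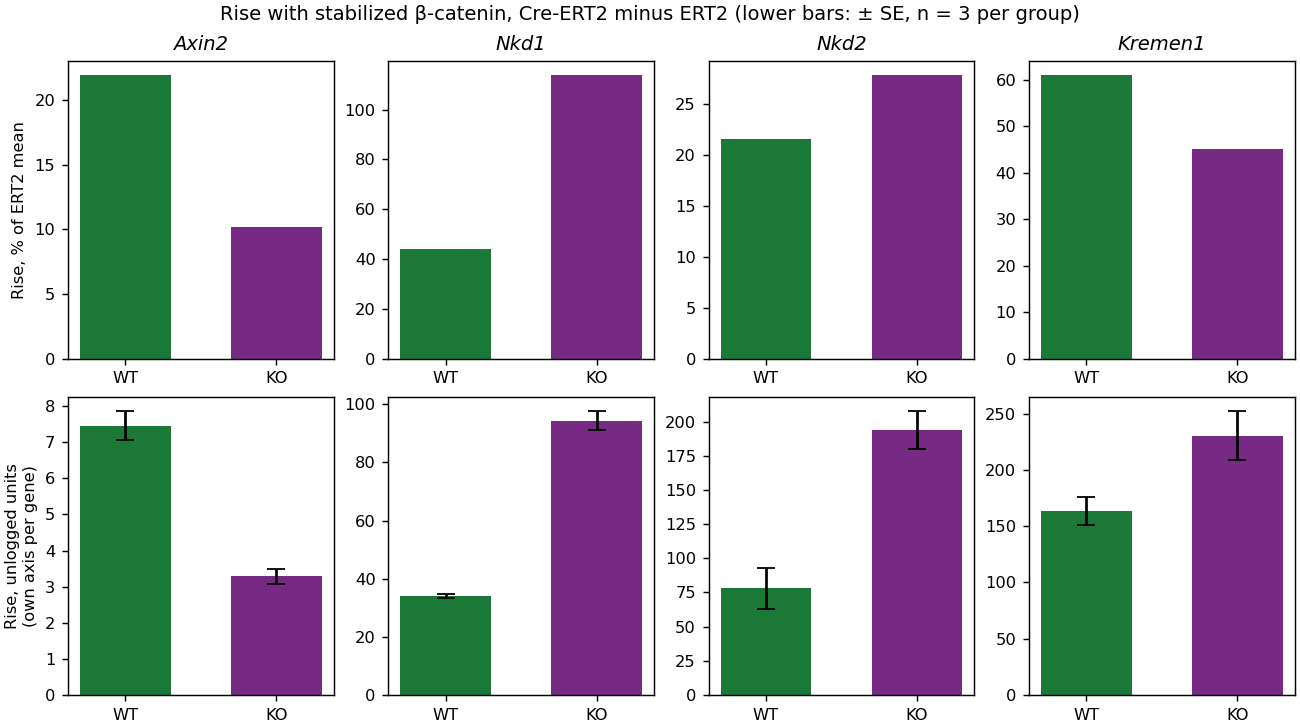
Rise from ERT2 to Cre-ERT2 in WT and KO cells for each gene, as a percentage of the ERT2 mean (upper row, no error drawn) and in unlogged normalized units (lower row, bars ± SE, 3 libraries per group), with a separate vertical axis for each panel. Nkd1 is higher and Axin2 lower in KO cells in both rows, and Kremen1 changes its order between the rows (60.9% against 45.2%, 163.5 against 230.4 units). The Kremen1 difference of log2 effects was not called.

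The 4 genes did not share 1 pattern over the 12 libraries. Nkd2 and Kremen1 varied most alike (Pearson's r 0.94), followed by Nkd1 with Kremen1 (0.81) and Nkd1 with Nkd2 (0.67). Axin2 was only loosely related to Nkd1 (0.36) and hardly to Kremen1 (0.029), and ran against Nkd2 (-0.29). These are descriptions over 12 libraries that fall into 4 groups, and the group differences set them.

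Among the other genes, those most like Nkd1 were Cd5 (r 0.99), a surface receptor of lymphocytes, Fam101b (0.99) and Plcg2 (0.98), a phospholipase in B cell receptor signaling. Cd5 changed from 6.67 in ERT2 WT to 7.18 in Cre-ERT2 WT and from 6.80 in ERT2 KO to 7.81 in Cre-ERT2 KO libraries, close in form to Nkd1. The nearest to Axin2 were Zap70 (0.99), a kinase of antigen receptor signaling, Cd93 (0.99), a surface protein of early B cells, and the adaptor gene Grap2 (0.98). Cd93 had group means of 13.90 and 14.57 in WT cells without and with Cre, and of 13.65 and 14.08 in KO cells. This is the order of groups seen for Axin2, and it comes with the choice of Cd93 by correlation. Those nearest to Nkd2 were Plod2, a lysyl hydroxylase (1.00), Trib1, a pseudokinase (1.00), and Slc15a3, a transporter (0.99). Those nearest to Kremen1 were Kbtbd11, Plscr1 and the ETS factor gene Etv5, each at 0.99. All correlations are over the 12 libraries and were picked as the highest of the table.

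Of 94 further genes listed for the pathway, 35 were among the genes tested. With β-catenin, 6 were called higher and 3 lower in WT cells, where 11.9% of all genes were called, and 9 higher and 3 lower in KO cells, where 12.6% were. Their median changes were -0.0044 and 0.0018 against 2.18e-05 and -0.00041 over all genes. Between KO and WT cells, 19 were called higher and 5 lower with ERT2 and 18 higher and 6 lower with Cre-ERT2, where 59% and 58.9% of all genes were called, with medians of 0.16 and 0.13 against 0.0016 over all genes in both comparisons. The medians of the 4 inhibitors were 0.41 and 0.45 for β-catenin and 0.52 and 0.73 for KO against WT.

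Around Dishevelled and Axin, 9 of 12 listed genes were tested, none was called for β-catenin in WT cells and only Tnks, a tankyrase that marks Axin for degradation, in KO cells (0.11, SE 0.027, limma adjusted p 0.0233). Axin1, the constitutive paralog of Axin2, changed by -0.13 (SE 0.048) in both backgrounds without being called (limma adjusted p 0.101 in WT and 0.103 in KO cells). Among KO effects in this group, Tnks2 was lower by -0.32 and Ccdc88c by -0.20 in ERT2 libraries, and Dvl3, a Dishevelled gene, was higher by 0.18.

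Of 9 genes listed as membrane inhibitors, 3 were tested. Znrf3, a ubiquitin ligase that removes Frizzled from the membrane, did not pass in WT cells (-0.0068, limma adjusted p 0.914) and rose by 0.13 in KO cells (SE 0.024, limma adjusted p 0.0027). The difference of 0.14 was called (limma adjusted p 0.0365), and Znrf3 was higher in ERT2 KO than in ERT2 WT cells by 0.92. Shisa3 was higher in KO cells by 1.00 with ERT2 and fell by 0.10 with β-catenin in KO cells. Bambi fell by 0.11 in WT cells and did not pass in KO cells (0.021, limma adjusted p 0.441). Its difference of 0.13 was called (limma adjusted p 0.00463). How Bambi acts on Wnt signaling was not examined, so its change is not read as that of an inhibitor. Kremen2 was not analysed here. Of 15 secreted inhibitors only Igfbp4 was tested, an insulin-like growth factor binding protein that also binds Wnt receptors, and it rose by 0.92 in WT (SE 0.050) and 0.48 in KO cells (SE 0.050). Its difference of -0.44 was called (SE 0.070, limma adjusted p 0.00325), a smaller rise in KO cells as for Axin2.

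Of 11 receptor genes tested among 18 listed, 1 rose and 1 fell with β-catenin in each background, against 11.9% of all genes called in WT and 12.6% in KO cells. In KO against WT cells with ERT2, 8 were higher and 2 lower, beside 29.8% and 29.3% of all genes. The coreceptor gene Lrp5, whose product Kremen1 acts upon, was higher by 1.39 (SE 0.039) and Fzd7 by 1.26 (SE 0.032), whereas Fzd6 was lower by -3.31 (SE 0.025). Lgr5, a receptor for R-spondins, was higher by 0.79 (SE 0.026). Of 25 ligand and secretion genes 3 were tested, none was called for β-catenin, and Wnt5b was higher by 0.31 in ERT2 KO cells.

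Among 8 of 15 other textbook targets, 4 rose and 1 fell in WT cells, beside 5.93% and 5.95% of all genes. In KO cells 5 rose and 1 fell, beside 7.27% and 5.33%. In WT cells Tle3, a corepressor, rose by 0.32, Tcf7, a TCF/LEF factor, by 0.26 and Tnfrsf19 by 0.23, while Myc fell by 0.62. In KO cells Tcf7 rose by 0.85, Tnfrsf19 by 0.50 and Tle3 by 0.17, and Myc fell by 0.31. A larger rise in KO cells, the direction seen for Nkd1, was called for Tcf7 (0.58, SE 0.038) and Tnfrsf19 (0.27, SE 0.042, limma adjusted p 0.00325). For Myc the positive difference, 0.31, was also called (SE 0.027, limma adjusted p 2.70e-05), here a smaller fall in KO cells.

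**Figure D5:**
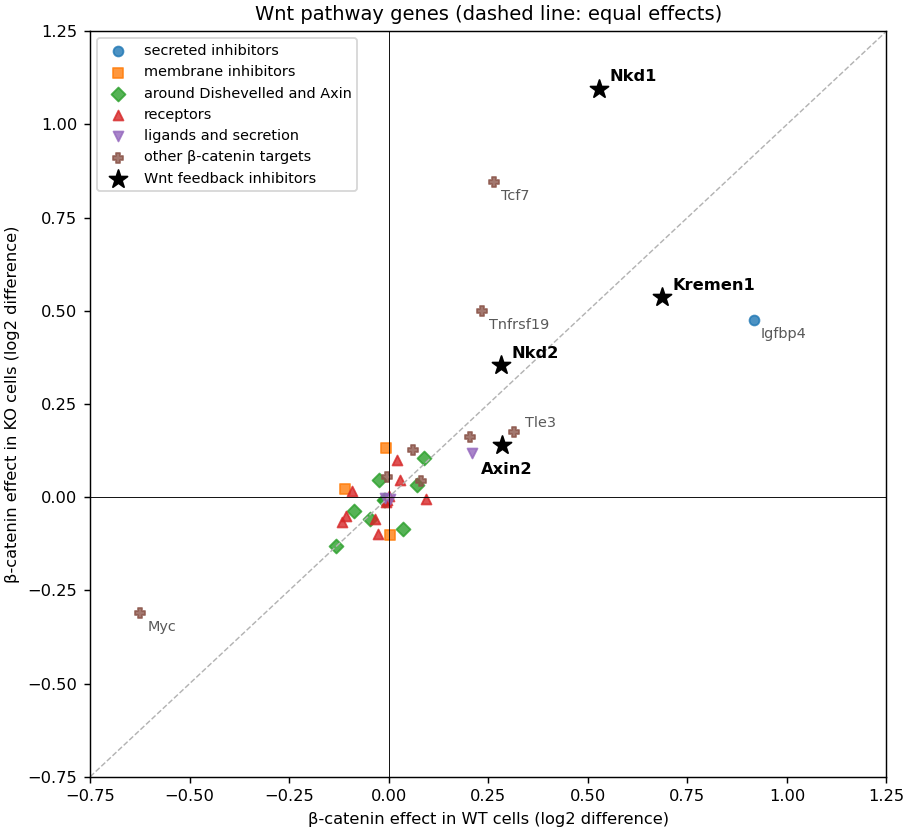
β-catenin effect (log2 difference of Cre-ERT2 and ERT2) in WT cells on the horizontal and in KO cells on the vertical axis for 35 Wnt pathway genes, marked by list, and the 4 inhibitors (stars); the dashed line marks equal effects. Most pathway genes lie near the origin, Nkd1 and Tcf7 lie above the line, and Axin2, Kremen1 and Igfbp4 lie below it.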

How the data were processed

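RNA-seq was analyzed in 12 libraries of BCR-ABL1 pre-B cells, 4 groups of 3 taken from the sample titles, prepared from 280 ng of RNA with 10 PCR cycles (stranded poly(A) kit). The submitters' processing notes name Salmon 1.4.0, STAR 2.7.6, DESeq2 1.30.1 and the mm10/GRCm38 build. The deposited table holds log2 values normalized between libraries, 1 column per library, and the transformation and gene filter are not given in the sources used here. As counts were not used here, depth is unknown and precision comes from replicates.

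Values were used as deposited, without pseudocount or further filter. A model of 4 group means was fitted to 12151 genes with limma 3.58.1 in R 4.3.3 (mean-dependent prior) after tests on simulated data, and P values were adjusted by Benjamini-Hochberg over all genes. Exact permutation tests, figures and sequence searches used Python 3.11.15. The 4 genes, the pathway and marker lists and the rule for named genes (at most the 4 largest called changes of a list in a comparison, the paralogs Axin1 and Kremen2, and the 3 genes most correlated with each inhibitor) were chosen with earlier results of these data known. Coordinates are from GENCODE M21 (GRCm38). Each inhibitor overlaps 1 other annotated gene (Gm11670, Gm45496, Gm8062 and Gm25142), and whether strand was used in counting is not stated. Alternatives covered scaling, filters, pseudocounts, priors, the libraries fitted and a replicate block.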

Additional observations from a re-analysis of the deposited data

Results flagged for a closer look

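For Nkd1 and Axin2, 2 of the 4 inhibitors, the interaction of β-catenin and background was called, as for 4.53% of all genes. It was not called for Nkd2 and Kremen1. A difference between backgrounds cannot be told apart here from a difference between clones. The rise of Nkd1 with KO exceeded its rise with WT by 0.57 (SE 0.038, limma adjusted p 2.74e-06), and over the alternatives the difference ran from 0.52 to 0.59 with adjusted p from 7.71e-07 to 3.42e-05. The difference of Axin2 was -0.15 (SE 0.023, limma adjusted p 0.00284), and ran from -0.16 to -0.11 with adjusted p from 0.000602 to 0.0102. The ERT2 KO values of Axin2, on which this difference rests, spanned only 0.00050 on a scale whose compression is unknown.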

How the results depend on the processing

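Of 569 values of the 4 inhibitors under alternative settings, 568 kept their direction and their side of the threshold, over 28 results. The exception was Nkd1 in ERT2 KO against ERT2 WT, whose difference of 0.11 became 0.035 after quantile normalization (limma adjusted p 0.289). The cause was not tested. Many of the alternative settings could not move a difference itself. The priors, the stricter threshold, the replicate block and the fit to 2 groups changed at most its SE or call. So did leaving out a library of a group outside the comparison. The 569 values are therefore not independent checks. Filters at a mean of 6 and of 8 left out Axin2, and the latter Nkd1 as well. Pseudocounts on unlogged values lowered the rise of Axin2 in WT cells to 0.20 and that of Nkd1 in KO cells to 0.97 with 16 added. Counts over all genes also moved, by over 1.5 times in several of the following cases. The median-centered splits, and the totals with 1 library left out, moved by less. A stricter adjusted p, under 0.01, left 787 (WT) and 790 (KO) genes responding to β-catenin and 240 with unequal responses, the fit to the 6 KO libraries gave 934, and genes with a mean of at least 8 gave 337 for the difference. Median centering moved the split between KO and WT cells to 2866 higher and 4747 lower with ERT2 and to 2983 and 4789 with Cre-ERT2, and the 4 inhibitors kept their direction. Leaving out 1 library gave 1026 to 1659 genes for β-catenin in WT and 1050 to 1458 in KO cells. By direction, genes lower with β-catenin in KO cells went from 648 to 416 without ERT2 KO replicate 2. Genes with a negative difference went from 221 to 135 without ERT2 WT replicate 1, 140 without Cre-ERT2 WT replicate 1 and 132 without ERT2 KO replicate 3. With a mean of at least 8, genes higher in KO cells went from 3616 to 2348 with ERT2 and from 3688 to 2415 with Cre-ERT2. That filter left 7729 genes to test instead of 12151, so these counts, and the 337 above, come from a smaller total.

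Whether replicate numbers pair the libraries is not settled by their correlations, and the main fit did not pair them. Deviations of same-numbered libraries from their group means correlated between -0.068 and 0.31. In 13 of 24 cases a library correlated best with its own number among 3 candidates. A replicate block gave 1361 (WT) and 1374 (KO) genes responding to β-catenin, 7089 and 7108 for KO against WT with ERT2 and Cre-ERT2 and 424 for the difference, and changed no call of the 4 inhibitors. Without read counts, differences at the level of Axin2 cannot be tied to a number of reads.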
